A study of Mus musculus with 4 samples.

Results

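Genes best known from macrophages, microglia, myelin-forming glia and osteoclasts were followed across 4 arrays of ATDC5 cells, a mouse chondroprogenitor line. The set holds 34 genes of the 19938 with a probe set of their own, and all 34 were measured, each by 1 probe set naming that gene alone. They were chosen by name and selected on earlier results of these arrays, namely the log2 difference of replicate 1 from replicate 2 within each day and that of day 15 from day 0. Both contrasts had a part in the choice, and the values of the 34 genes in them are given as a description. Counts of limma calls among them stand beside the share of all genes called, and nothing is read from them. The day 0 group was kept undifferentiated in DMEM/F12 with fetal bovine serum, glutamine and ascorbic acid, and the day 15 group had insulin, transferrin and selenite added to that medium for 15 days. Each day has 2 arrays, numbered 1 and 2 in the labels, and each array measured total RNA of 1 sample. The labels do not say whether samples with the same number share a culture, a day of work or any other step, nor that the samples are separate cultures.

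Macrophages are phagocytes of the innate immune system, and microglia are the resident macrophages of the brain. Both need signals through the receptor Csf1r to live, and both make the C1q proteins that start the classical complement cascade. Microglia also carry a set of surface receptors that sense nucleotides and other signals of nervous tissue, P2ry12 among them. Osteoclasts, which resorb bone and calcified cartilage, arise from the same lineage by fusion of precursors. Myelin is the membrane sheath that oligodendrocytes wrap around axons in the brain, and Mbp and Mobp encode proteins of it. None of these cell types is the chondrocyte that ATDC5 cells form.

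All values below are log2(intensity + 1) after quantile normalization of the 4 arrays unless a linear intensity is named, and levels are compared within a gene only. No detection call was used, so a dim value may lie at background. The chondrocyte factor Sox9 ranged from 11.88 to 12.75 over the 4 arrays. The cartilage link protein Hapln1 went from 6.72 and 6.82 on day 0 to 12.90 and 12.92 on day 15. The median of all probe sets as deposited lay between 7.87 and 8.06 on the 4 arrays. With 2 arrays a day, precision is limited throughout.

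Of the 34 genes, 18 were at least 1 log2, that is 2-fold, brighter in replicate 1 than in replicate 2 on both days, and none was that much dimmer. Of all 19938 genes, 0.341% were that much brighter in replicate 1 on both days and 0.201% that much dimmer. On day 0 alone the count was 21 of 34, against 1.45% of all genes, and on day 15 it was the same 18, against 1.36%. With any size of difference, 28 of the 34 were brighter in replicate 1 on both days (34.1% of all genes) and 3 were dimmer on both (28.5% of all genes). The median of the 34 replicate differences was 1.47 log2 on day 0 and 1.21 on day 15, and over all genes it was 0.00 and 0.05. Since the contrast served to choose the genes, nothing is read from these shares. The gene just inside the threshold was Cx3cr1, whose smaller difference of the days was 1.06, and the gene just outside was Trem2, at 0.82.

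**Figure D1:**
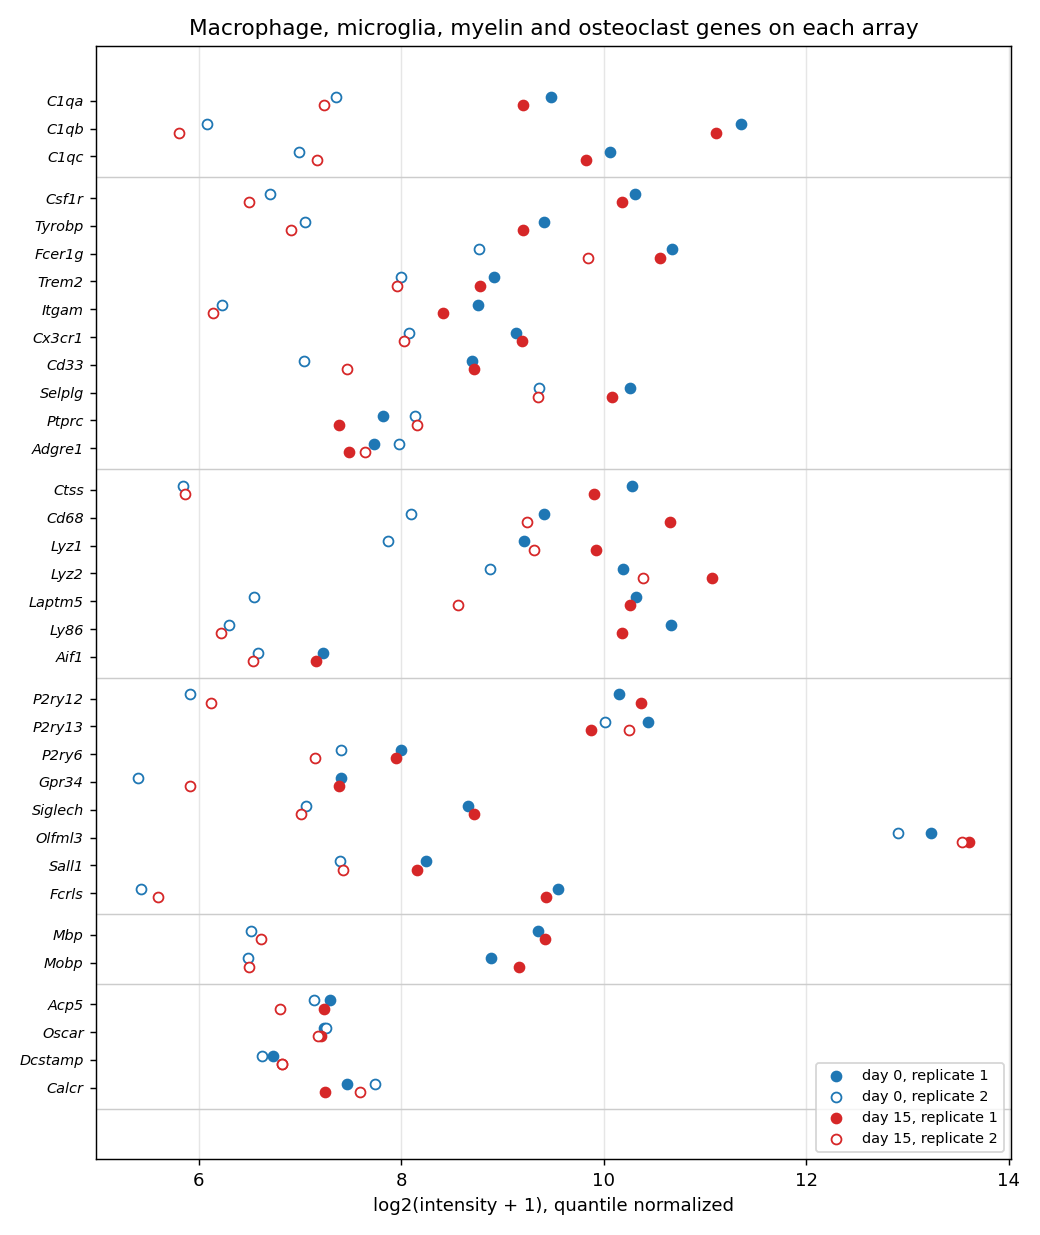
Level of each of the 34 genes on each array, as log2(intensity + 1) after quantile normalization (horizontal axis), by gene (vertical axis) in groups of role. Blue is day 0 and red day 15, filled circles are replicate 1 and open circles replicate 2. For C1qb, Ctss, Ly86, P2ry12 and Fcrls the filled circles of both days lie together and 3.83 log2 or more to the right of the open ones, while the replicates of the osteoclast genes at the bottom differ by at most 0.43 log2.

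The C1q subunits, the A, B and C chains that assemble into the recognition molecule of the classical complement pathway, were all brighter in replicate 1. C1qb was at 11.36 in replicate 1 and 6.09 in replicate 2 on day 0, and at 11.11 and 5.80 on day 15. As deposited, its linear intensities were 2623, 71.7, 2224 and 55.3 in the same order. The replicates thus differed 38.7-fold on day 0 and 39.4-fold on day 15, more than for any other of the 34 genes on either day. C1qc was at 10.06 and 6.99 on day 0 and at 9.83 and 7.17 on day 15. C1qa was at 9.48 and 7.36 on day 0 and at 9.20 and 7.24 on day 15. Both replicate 1 arrays lay above both replicate 2 arrays for each chain, and the days overlapped.

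Among 10 receptors and signalling adaptors of myeloid cells, 5 passed the 2-fold difference on both days. Csf1r, the receptor of the macrophage growth factors Csf1 and Il34, was at 10.31 in replicate 1 and 6.71 in replicate 2 on day 0, and at 10.19 and 6.49 on day 15. Itgam, the integrin chain CD11b, was at 8.76 and 6.23 on day 0 and at 8.41 and 6.14 on day 15. The values are of the probe set that names Itgam alone, and 3 others that name it together with Rpl35 were left out. Tyrobp, the adaptor that carries the signal of Trem2 and related receptors, was at 9.41 and 7.05 on day 0 and at 9.20 and 6.91 on day 15. For these 3 genes the replicates stood apart by more than 2 log2 on each day, and the days by less than 0.5 within each replicate.

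The lectin Cd33 was at 8.70 and 7.04 on day 0 and at 8.72 and 7.47 on day 15. Cx3cr1, the fractalkine receptor, was at 9.13 and 8.07 on day 0 and at 9.20 and 8.03 on day 15. Trem2, a lipid-sensing receptor, was at 8.91 and 7.99 on day 0 and at 8.77 and 7.96 on day 15. Selplg, the selectin ligand PSGL-1, showed the same order at 10.26 and 9.36 on day 0 and at 10.08 and 9.35 on day 15. Fcer1g, the common gamma chain of Fc receptors, was at 10.68 and 8.77 on day 0 and at 10.56 and 9.85 on day 15, so its replicates lay closer on day 15. Ptprc and Adgre1 went the other way. Ptprc, the leukocyte antigen CD45, was at 7.82 and 8.14 on day 0 and at 7.39 and 8.15 on day 15. Adgre1, the macrophage antigen F4/80, was at 7.73 and 7.98 on day 0 and at 7.48 and 7.65 on day 15. These defining markers of leukocytes and macrophages were thus not brighter in replicate 1.

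The 7 lysosomal and other broad macrophage genes were all brighter in replicate 1 on both days, 4 of them at least 2-fold on both. Ctss, the lysosomal protease cathepsin S, was at 10.28 and 5.85 on day 0 and at 9.90 and 5.87 on day 15. Ly86, which encodes MD-1, the partner of the Toll-like receptor homologue RP105, was at 10.67 and 6.30 on day 0 and at 10.18 and 6.22 on day 15. These differences came to 21.6-fold and 20.7-fold on day 0 and to 16.4-fold and 15.5-fold on day 15. Aif1, the calcium-binding protein Iba1, had a smaller gap, at 7.23 and 6.59 on day 0 and at 7.16 and 6.54 on day 15.

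For the other 4 of this group the days stood at least 1 log2 apart in at least 1 replicate. Laptm5, a lysosomal membrane protein of blood cells, was at 10.32 and 6.55 on day 0 and at 10.26 and 8.56 on day 15. Its replicate 1 arrays were alike on the days, and the smaller gap on day 15 lay in replicate 2. Cd68, a lysosomal membrane glycoprotein, was at 9.41 and 8.10 on day 0 and at 10.66 and 9.24 on day 15. The lysozymes Lyz2 and Lyz1 shared a pattern, with Lyz2 at 10.19 and 8.88 on day 0 and at 11.07 and 10.38 on day 15. Lyz1 was at 9.21 and 7.87 on day 0 and at 9.93 and 9.32 on day 15. For both lysozymes each day 15 array was above both day 0 arrays. The lysozymes are close relatives, and whether their probe sets tell them apart was not examined.

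The 8 microglia-enriched genes split evenly, with 4 past the 2-fold difference on both days and 4 not. P2ry12, the ADP receptor of resting microglia, was at 10.15 and 5.91 on day 0 and at 10.37 and 6.12 on day 15, which is 18.9-fold and 19.0-fold. Fcrls, an Fc receptor-like scavenger receptor, was at 9.54 and 5.43 on day 0 and at 9.43 and 5.60 on day 15. Siglech, a receptor of the Siglec family, was at 8.66 and 7.06 on day 0 and at 8.72 and 7.01 on day 15. Gpr34, a lysophosphatidylserine receptor, was at 7.41 and 5.40 on day 0 and at 7.39 and 5.91 on day 15. All 4 were brighter on both replicate 1 arrays than on both replicate 2 arrays. Gpr34 was dim even in replicate 1, and its levels may lie near background.

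Sall1, a transcription factor of microglial identity that is also made in other tissues, was at 8.25 and 7.39 on day 0 and at 8.15 and 7.43 on day 15. The nucleotide receptor P2ry6 differed between replicates by 0.59 log2 on day 0 and 0.80 on day 15. P2ry13, an ADP receptor next to P2ry12 in the family, had no common order, at 10.44 and 10.02 on day 0 and at 9.87 and 10.25 on day 15. Olfml3, a secreted glycoprotein that binds BMP ligands, was bright on all 4 arrays, at 13.23 and 12.91 on day 0 and at 13.61 and 13.54 on day 15. P2ry13 and Olfml3 therefore lacked the gap between replicates that P2ry12 and Fcrls had.

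Both myelin genes were brighter in replicate 1 by a like amount on the days. Mbp, myelin basic protein, was at 9.35 and 6.52 on day 0 and at 9.42 and 6.61 on day 15, which is 7.12-fold and 7.01-fold. Mobp, the myelin-associated oligodendrocyte basic protein, was at 8.89 and 6.49 on day 0 and at 9.17 and 6.50 on day 15. The 4 osteoclast genes had no such gap. Acp5, tartrate-resistant acid phosphatase, was at 7.30 and 7.14 on day 0 and at 7.23 and 6.80 on day 15. Dcstamp, a membrane protein needed for precursor fusion, was at 6.73 and 6.62 on day 0 and at 6.82 and 6.82 on day 15. Oscar, a collagen-binding receptor, ranged from 7.17 to 7.26 over the 4 arrays. Calcr, the calcitonin receptor, was at 7.46 and 7.74 on day 0 and at 7.25 and 7.59 on day 15.

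**Figure D2:**
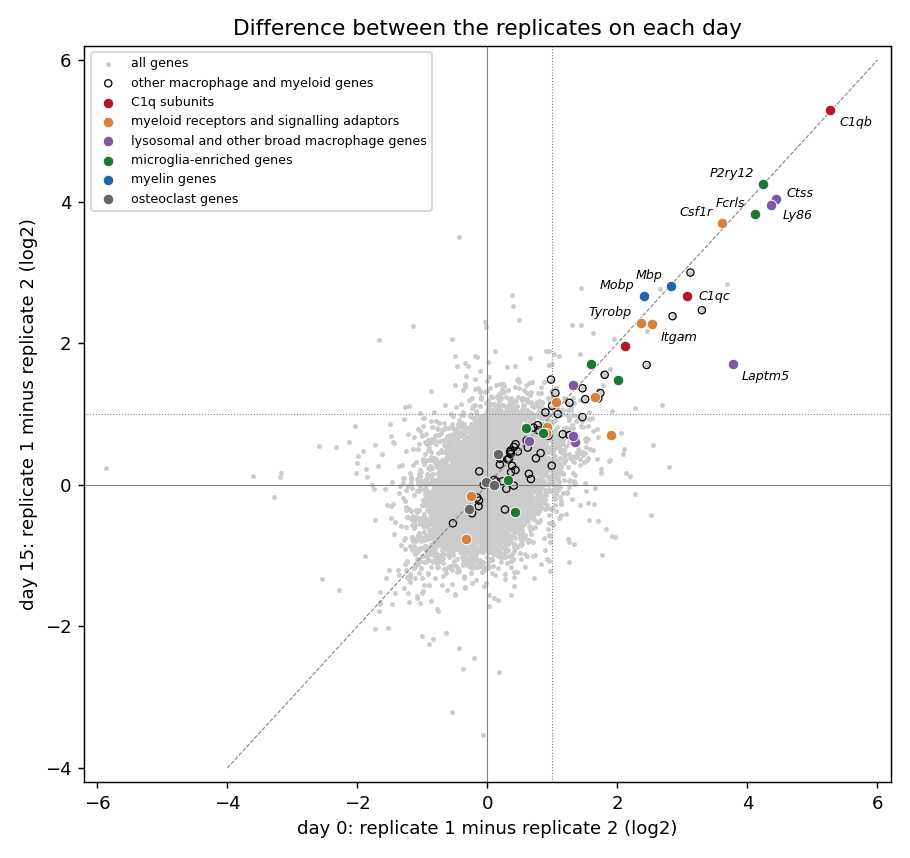
Replicate 1 minus replicate 2 in log2 on day 0 (horizontal axis) and on day 15 (vertical axis) for all genes (grey), for other macrophage and myeloid genes (open circles) and for the 34 genes in colours of their role. The dashed line marks equal differences on the days and the dotted lines mark 1 log2; C1qb lies farthest out at 5.28 and 5.30, and Laptm5 lies below the line at 3.77 and 1.70.

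Among the 18 genes past the threshold, the size of the gap was mostly alike on the days. They had to pass on both days, so genes whose gap fell below 1 log2 on day 15 were left out. Fcer1g, Lyz1 and Lyz2 passed on day 0 alone, at 1.90, 1.35 and 1.31 log2, with 0.71, 0.61 and 0.69 on day 15. Within the 18, the change of the replicate difference from day 0 to day 15 ran from −2.07 log2 for Laptm5 to 0.27 for Mobp. The median change was −0.11, and in 16 of the 18 the change was at most 0.5 log2 in size, Laptm5 and Gpr34 being the others. Summed over the 18, linear intensity was 16166 in replicate 1 and 2018 in replicate 2 on day 0, and 15609 and 2663 on day 15. All genes were also put in order of the smaller of their day 0 and day 15 replicate differences. Of the first 10, 8 were among the 34, and of the first 20, 12 were. Since this contrast served to choose the 34, nothing is read from their place in the order.

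Promoter sequence is shown for the 5 genes with the widest gap between replicates, from the RefSeq promoter table (GRCm38.p6), because they move together across these arrays. Each run is 160 bases long, from 150 bases before the annotated start to 10 bases from the start onward, 5′ to 3′ on the gene's strand. Capitals mark GGAAGT or its reverse complement, a core letter string of the ETS family of transcription factors, to which the macrophage factor PU.1 belongs.
C1qb (chr4:136886191-136886350, minus strand): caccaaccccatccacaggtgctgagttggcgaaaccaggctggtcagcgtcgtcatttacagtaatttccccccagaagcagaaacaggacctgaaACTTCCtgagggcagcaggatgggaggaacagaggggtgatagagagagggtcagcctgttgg
P2ry12 (chr3:59262976-59263135, minus strand): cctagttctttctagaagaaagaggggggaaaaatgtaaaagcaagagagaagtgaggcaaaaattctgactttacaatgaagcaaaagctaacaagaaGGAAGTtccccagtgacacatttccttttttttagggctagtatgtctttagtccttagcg
Ctss (chr3:95526636-95526795, plus strand): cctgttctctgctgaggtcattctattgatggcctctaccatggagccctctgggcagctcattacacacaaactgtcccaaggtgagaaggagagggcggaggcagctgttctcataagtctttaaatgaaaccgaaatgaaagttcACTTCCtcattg
Ly86 (chr13:37345195-37345354, plus strand): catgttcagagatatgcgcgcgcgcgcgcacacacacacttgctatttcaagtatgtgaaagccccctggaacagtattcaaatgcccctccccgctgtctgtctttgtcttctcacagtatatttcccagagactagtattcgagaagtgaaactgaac
Fcrls (chr3:87263515-87263674, minus strand): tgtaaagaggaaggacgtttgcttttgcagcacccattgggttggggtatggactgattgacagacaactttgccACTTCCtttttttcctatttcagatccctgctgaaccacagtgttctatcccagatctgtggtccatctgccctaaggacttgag
The string was found once in each of C1qb, P2ry12, Ctss and Fcrls and not in the window of Ly86. Of 25 of the 34 genes with an entry in the table, 9 held GGAAGT on either strand in a window of this length, and 14.7% of the table's 32851 promoters did. GAGGAA, which overlaps GGAAGT where both stand together, was held by 10 of the 25 and by 15.4% of all promoters. Among the genes past the 2-fold difference on both days, 13 had an entry, of which 5 held GGAAGT and 7 held GAGGAA. A gene counted where any of its entries held the string, while the shares are of single promoters. The counts and the shares are thus unlike measures, and nothing is read from setting them together. Other strings were also looked at, and a match is a description of these letters.

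Lists of other genes were set beside the 34 to describe their replicate differences. They were chosen with earlier results of these data known, so they do not show how far the gap reached. Of 55 measured other macrophage and myeloid genes, 12 were at least 2-fold brighter in replicate 1 on both days (0.341% of all genes). None was that much dimmer (0.201% of all genes). With any size of difference, 45 were brighter on both days (34.1% of all genes) and 6 were dimmer on both (28.5% of all genes). Cd53, a tetraspanin of leukocytes, was at 9.37 in replicate 1 and 6.25 in replicate 2 on day 0, and at 9.08 and 6.08 on day 15. Mpeg1, a pore-forming protein of macrophages, differed by 3.30 log2 on day 0 and 2.47 on day 15. Pld4, a nuclease of myeloid cells, differed by 2.85 and 2.38, and the anaphylatoxin receptor C3ar1 by 2.45 and 1.69. Spi1, which encodes PU.1, differed by 1.26 and 1.16. The median difference of this list was 0.62 on day 0 and 0.47 on day 15. Mrc1, Cd163, Marco and Msr1, receptors of many tissue macrophages, differed by between −0.22 and 0.36 log2 on either day.

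Of 25 measured other microglia-enriched genes, 1 passed on both days (0.341% of all genes), the ectonucleotidase Entpd1, by 1.78 and 1.41 log2. Of 24 other myelin and oligodendrocyte genes, 2 passed (0.341% of all genes), Plekhb1 (2.66 and 2.76) and Bcas1 (1.38 and 1.38). The myelin proteins Mag and Mog and the lineage factors Olig1, Olig2 and Sox10 did not, differing by between −0.30 and 0.31 log2 on either day. No gene passed on both days among 17 other osteoclast genes, 10 ligands of myeloid receptors, 16 neuron, 10 astrocyte, 12 endothelial, 12 lymphocyte, 14 granulocyte and mast cell and 4 erythroid genes (0.341% of all genes). At that share, lists of this size may well hold none. The brightest of these lists were Atp6v1b2 and Ostm1, Cxcl12 and Csf1, Map2 and Eno2, Gja1 and Slc1a3, Egfl7 and Flt1, Zap70 and Cd4, Camp and Tpsb2, and Epor and Slc4a1. Of these 16 genes the difference reached 1 log2 on a day for Eno2 alone, at 1.01 on day 15 and −0.26 on day 0. Elsewhere in these lists replicate 1 was brighter by over 1 log2 on 1 day for Fos (2.79 on day 0), Atp6v0d2 (1.80 on day 15), Aldoc (1.31 on day 0) and Slc1a2 (1.11 on day 0). Of the 10 astrocyte genes 8 were brighter in replicate 1 on both days by any amount (34.1% of all genes), with medians of 0.28 on day 0 and 0.39 on day 15.

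**Figure D3:**
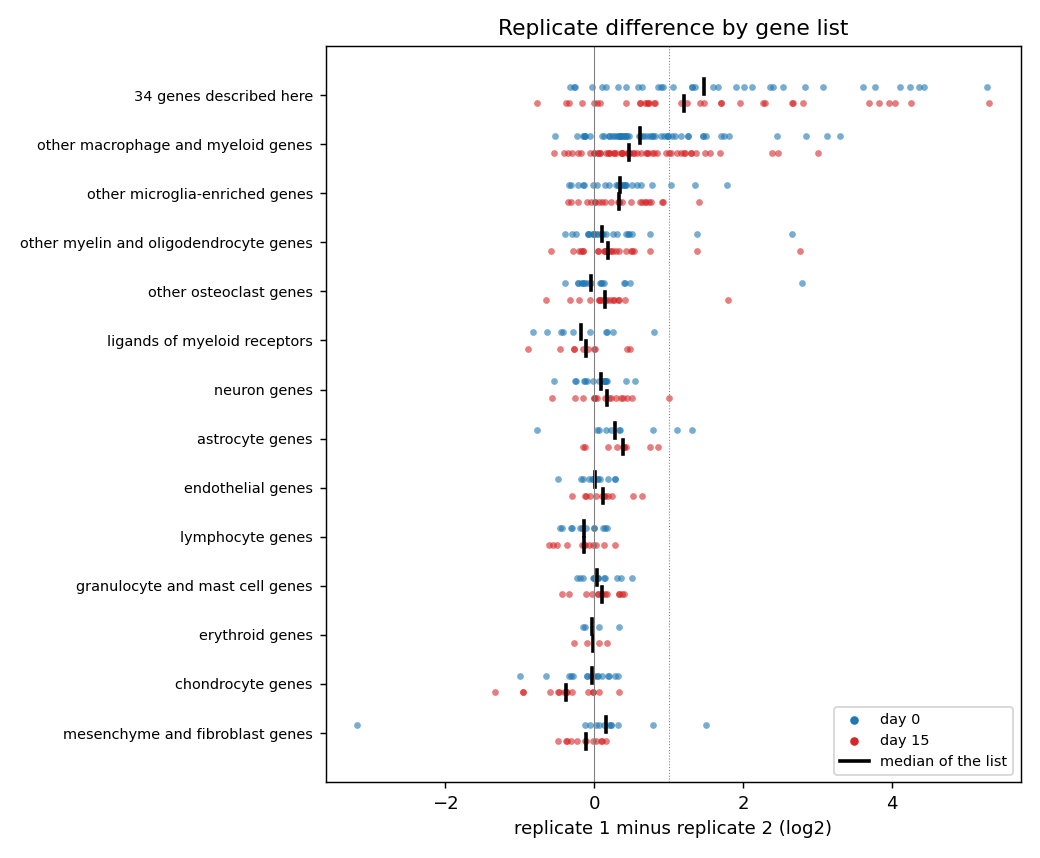
Replicate 1 minus replicate 2 in log2 (horizontal axis) for every measured gene of each list (vertical axis), with day 0 in blue, day 15 in red and a black bar at the median of the list on that day. The 34 genes have medians of 1.47 and 1.21 and the other macrophage and myeloid genes of 0.62 and 0.47, while the lymphocyte genes have −0.14 and −0.13.

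Summed linear intensity compares whole lists, with the bright genes weighing most. Over the 34 genes the sum was 33991 in replicate 1 and 14352 in replicate 2 on day 0, and 36789 and 21018 on day 15. Olfml3 was the brightest of the 34 on each array, and its replicates differed by only 0.32 and 0.07 log2. The 8 microglia-enriched genes, Olfml3 among them, held 9330 of the replicate 2 sum on day 0 and 13733 on day 15. For the C1q subunits the sum was 12.4-fold higher in replicate 1 on day 0 and 10.6-fold on day 15, and for the myelin genes 6.27-fold and 6.76-fold. For the 4 osteoclast genes the ratio was 0.97 and 1.00, and for the lymphocyte genes it was 0.94 and 0.86. Chondrocyte genes lacked this order of the replicates. Of 16 chondrocyte genes, none was at least 2-fold brighter in replicate 1 on both days (0.341% of all genes). Their median difference was −0.03 on day 0 and −0.38 on day 15. By any amount, 8 were brighter in replicate 2 on both days (28.5% of all genes) and 1 in replicate 1 (34.1% of all genes). Of the 16, limma called 7 between the days (1.72% of all genes). The 4 with the largest change among the 7 were Hapln1, Ucma, Col10a1 and Acan. The replicates of Hapln1 differed by −0.10 and −0.02 log2, those of type X collagen Col10a1 by −0.65 and −0.08, and those of the aggrecan gene Acan by 0.28 and −1.33. Ucma, a secreted protein of growth plate cartilage, was at 8.89 and 9.89 on day 0 and at 13.60 and 13.54 on day 15. None of 12 mesenchyme and fibroblast genes passed on both days (0.341% of all genes). The brightest, Vim and Fn1, differed by 0.13 and 0.09 log2 and by 0.02 and −0.23, while on day 0 Pdgfra was at 10.17 and 8.66 and Lum at 5.78 and 8.97 in replicates 1 and 2. In bulk RNA, fewer cells of a type and less RNA per cell cannot be told apart, and the part of other cells or of the handling of the samples in these differences was not tested.

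Day 15 was set against day 0 to ask what differentiation does to expression. None of the 34 genes was called by limma at an adjusted p below 0.05 over all genes, where 1.72% of all genes were called (1.3% higher and 0.411% lower). At an unadjusted p below 0.05 limma had 2 of the 34, Lyz2 and Olfml3, and 12.2% of all genes. Since this contrast also served to choose the genes, these counts test nothing about them. The median SD within days was 0.99 log2 over the 34 and 0.18 over all genes. That spread is made of the replicate differences that also served to choose the genes, so nothing is read from its width. Both day 15 arrays lay above both day 0 arrays for 4 of the 34, Olfml3, Dcstamp, Lyz1 and Lyz2 (22.3% of all genes), and below them for 2, Adgre1 and Oscar (17.8% of all genes).

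The median of day 15 minus day 0 over the 34 genes was −0.04 log2, and over all genes 0.02. It followed which arrays were used. Without day 0 replicate 1 it was 1.03 and without day 15 replicate 2 it was 0.85, while without day 0 replicate 2 it was −0.54 and without day 15 replicate 1 it was −0.47. Within replicate 1 the median was −0.08 and within replicate 2 it was 0.01. Of the 18 genes with the gap between replicates, 16 had a difference between the day means of at most 0.3 log2, Cd68 and Laptm5 being the others.

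A few genes stood out from this within a replicate. Cd68 was higher at day 15 by 1.25 log2 in replicate 1 and by 1.15 in replicate 2, and was the only one of the 34 at least 2-fold higher in replicate 1 (3.39% of all genes). In replicate 2, 5 of the 34 were at least 2-fold higher at day 15 (3.04% of all genes). They were Laptm5 by 2.01 log2, Lyz2 by 1.51, Lyz1 by 1.45, Cd68 by 1.15 and Fcer1g by 1.07. In replicate 1 the same genes differed by −0.06 for Laptm5, 0.88 for Lyz2, 0.71 for Lyz1 and −0.12 for Fcer1g. Laptm5 and Fcer1g were thus past 2-fold in replicate 2, where their day 0 levels were the lowest of the 4 arrays, and not in replicate 1. With 1 array on each side, the difference between replicates in this change could not be tested.

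**Figure D4:**
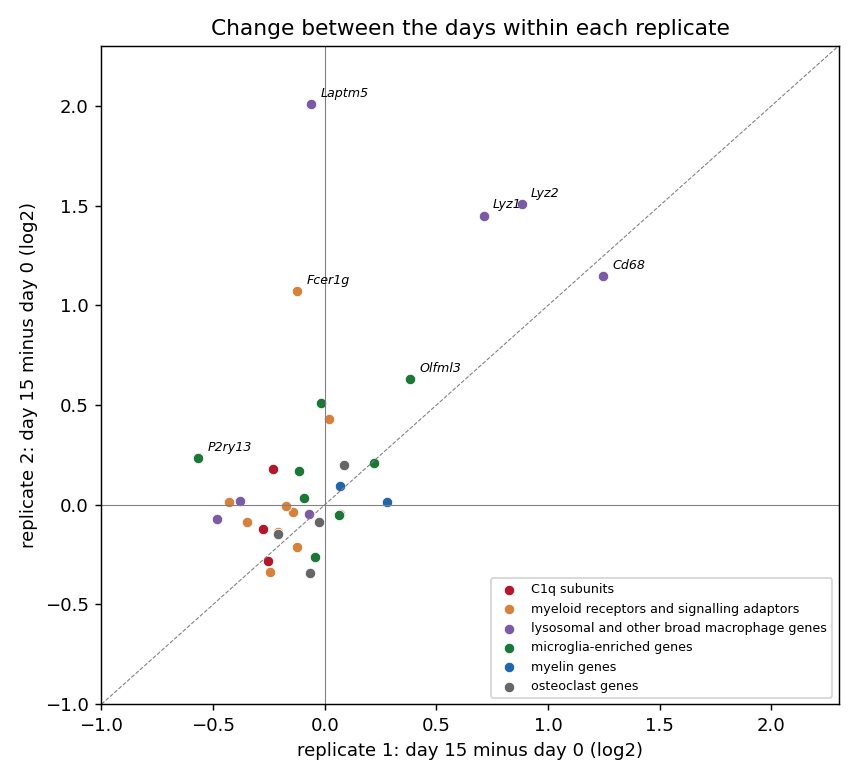
Day 15 minus day 0 in log2 within replicate 1 (horizontal axis) and within replicate 2 (vertical axis) for each of the 34 genes, coloured by role, with a dashed line where both are equal. Most points lie near 0 in both; Cd68 lies on the line at 1.25 and 1.15, and Laptm5 lies at −0.06 and 2.01.

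Of the 25 microglia-enriched genes outside the 34, 2 were called between the days (1.72% of all genes). Tmem119, a membrane protein of microglia and of bone-forming cells, rose by 3.76 log2 (limma adjusted p = 0.00433), from 9.12 and 8.50 on day 0 to 12.41 and 12.72 on day 15. Jam2, a junctional adhesion molecule, rose by 3.17 log2 (limma adjusted p = 0.0163), from 7.92 and 7.41 to 11.29 and 10.38. For both genes, both day 15 arrays lay above both day 0 arrays. None of the 55 other macrophage and myeloid genes, the 24 other myelin genes or the 17 other osteoclast genes was called by limma, and 4, 3 and 6 of them had an unadjusted p below 0.05, against 12.2% of all genes. Of the ligands, Csf1, the growth factor of Csf1r, was at 12.72 and 13.14 on day 0 and at 11.55 and 11.82 on day 15 without passing the test (limma adjusted p = 0.0660), and none of the 10 was called, with 5 at an unadjusted p below 0.05 (12.2% of all genes).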

How the data were processed

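The authors deposited 1 processed intensity per probe set and array, on a linear scale as judged from the values. How they were background corrected, summarized and normalized is not given in the sources used here. RNA was labelled with biotin for 1-colour whole-transcript arrays, per the labels' protocols, and the genome build was mm9, per the submitters' processing notes.

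Of 35512 probe sets, 21789 name 1 gene in the platform annotation. Probe sets naming several genes (1621) or none (12102) were left out, symbols were updated through gene identifiers (21698 found, assembly GRCm38.p6), and the brightest probe set of a gene was used, leaving 19938 genes. After adding 1, values were put on the log2 scale and quantile normalized over all probe sets, since array medians differed by more than 0.1 log2. The days were compared in R 4.3.3 by limma 3.58.1 (eBayes, group as the only term, Benjamini-Hochberg over all genes, called below 0.05, two-sided), tested on simulated data. Since nothing says that the samples were separate cultures, p-values may reflect technical spread only. Replicate differences rest on 1 array a side and have no test.

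The 34 genes and the lists were chosen with earlier results of these data known. All 34 are named. From each other list up to 4 called genes with the largest difference and up to 4 with the largest replicate difference past 1 log2 on both days are named, or else the 2 brightest. Spi1, Mrc1, Cd163, Marco, Msr1, Mag, Mog, Olig1, Olig2, Sox10, Sox9, Fos, Atp6v0d2, Aldoc, Slc1a2, Pdgfra and Lum, and those in the closing observations, were picked with their values in view. Plots used Python 3.11.15 and matplotlib 3.10.9.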

Additional observations from a re-analysis of the deposited data

How the results depend on the processing

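The replicate gap kept its direction and size under other scalings. The number of the 34 genes at least 1 log2 brighter in replicate 1 on both days was 17 on the deposited scaling and 18 with median centring, with a pseudocount of 16 and with the mean of all probe sets. It was 2 among genes at or above the median level, where 8 of the 34 were left. The median replicate difference ran from 1.31 to 1.48 on day 0 and from 0.70 to 1.27 on day 15 over the alternatives, the lowest of each with that filter. The sign of single replicate differences turned only for Oscar and Dcstamp on day 15, both near 0. With the replicate number as a block, 628 genes were called between the days in place of 342, and 1 of the 34, Cd68. The labels do not say that the numbers pair the samples. Over all genes the replicate difference of day 0 correlated with that of day 15 at 0.40 (Pearson), and at 0.36 without the 34 genes and the lists; the genes are not independent. Leaving out 1 array gave 178 to 284 called genes, none of the 34 in any of these fits, and a median day difference of the 34 from −0.54 to 1.03; there a single array stands for its day and takes its spread from the pair of the other day. Without detection calls, the dim levels in replicate 2 may lie at background, and a fold against them may then be too small.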

Other observations

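Of the 68 genes at least 2-fold brighter in replicate 1 on both days, 18 were among the 34 genes, 15 were in the other lists and 35 in neither. Ranked by the smaller of the day 0 and day 15 differences, the widest gaps among these 35 were those of Ctsc, the lysosomal protease cathepsin C, at 3.69 log2 on day 0 and 2.84 on day 15, and of Gatm, an enzyme of creatine synthesis, at 2.46 and 2.17. The chemokine Ccl3 differed by 3.03 and 2.10, and Trf, which encodes transferrin, by 1.95 and 2.06. Unc93b1, a chaperone of Toll-like receptors in endosomes, differed by 1.74 and 1.23, and Vsir, an immune checkpoint receptor, by 1.18 and 1.23. These 2 were picked from further down the order. Between Trf and Unc93b1 stood Pate14 (1.44 and 2.79), Ano2 (1.43 and 2.26), Tuba3b (1.70 and 1.34) and Plxdc2 (1.31 and 2.26). The microRNA genes Mir384, Mir463, Mir376c and Mir144 stood there too, and Shcbp1, Nuf2 and Snord35a came after Vsir.

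In the other direction, 40 genes were at least 2-fold brighter in replicate 2 on both days (0.201% of all genes). Dmp1, a matrix protein of osteocytes, was at 7.49 and 9.14 on day 0 and at 7.61 and 9.30 on day 15. The leukocyte genes Spn (CD43) and Was, in none of the lists, were among them, by −1.65 and −1.66 log2 for Spn and −1.42 and −1.53 for Was (replicate 1 minus replicate 2).

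Among the 12102 probe sets with no gene listed, 200 (1.65%) were at least 2-fold brighter in replicate 1 on both days and 227 (1.88%) in replicate 2. The 200 were dim, with a median level of 4.11 against 6.90 for all probe sets of that kind.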
